A study of Homo sapiens with 12 samples.

Results

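The 52 genes described here code for the machinery of autophagy and for proteins of the lysosome: the MiT/TFE transcription factors, the kinases and lipid-handling proteins that start an autophagosome, the conjugation enzymes and ATG8 proteins that build it, cargo receptors, lysosomal membrane proteins and hydrolases, the V-ATPase, and the folliculin and RAG GTPase module. They were picked by known role, with earlier results of these data in view, out of 27814 genes with a symbol in the count table. All 52 were in the table and all 52 had enough counts to be among the 16208 genes tested. The cells were BT474, a human breast cancer line that carries amplified HER2 and expresses hormone receptors. Bulk mRNA was measured in 12 libraries that form 4 groups of 3: BRD8 KO cells given 200 nM neratinib for 4 h, parental cells given the same, BRD8 KO cells in DMSO, and parental cells in DMSO, the solvent control. Neratinib binds HER2 and its ErbB relatives covalently and blocks their kinase activity. BRD8 belongs to the TIP60 histone acetyltransferase complex, in which it reads acetylated chromatin. All cells were kept in RPMI medium with serum. It is not stated if the KO line is 1 clone or a pool, or which stretch of the gene was disrupted. Nothing states that the replicates are separate cultures either, so the p-values speak only of the spread among these libraries, which may be technical.

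Autophagy encloses cytoplasm in a double membrane and delivers it to the lysosome for digestion. The ULK kinases start it, the class III PI3K complex marks the site with a lipid, ATG9A and ATG2A bring membrane, and a ubiquitin-like conjugation system attaches ATG8 proteins (LC3 and GABARAP) to the growing membrane, where receptors such as p62 tether cargo. When nutrients are plentiful, mTORC1 at the lysosome holds ULK1 and TFEB in check, and AKT and ERK signalling downstream of HER2 feeds into the same control. TFEB, TFE3 and MITF bind an E-box in the promoters of many lysosomal genes, an element known as CLEAR, and forkhead factors of the FOXO family, which AKT keeps out of the nucleus, are known to act on several autophagy genes.

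The promoter letters bear on these factors, and 5 promoters are shown because they span the responses described further on: MCOLN1 and GAA hold the CLEAR palindrome, LAMP1 holds the most E-boxes, CTSL holds a forkhead match, and GABARAPL1, the gene with the largest rise, holds none of the motifs searched. Each runs 5′ to 3′ on the gene's strand from 250 bases before the start site to 50 after it, from RefSeq on GRCh38.p14. Capitals mark an E-box with the flanks that matched, or the forkhead match in CTSL.
MCOLN1, chr19:7522374-7522673, plus strand: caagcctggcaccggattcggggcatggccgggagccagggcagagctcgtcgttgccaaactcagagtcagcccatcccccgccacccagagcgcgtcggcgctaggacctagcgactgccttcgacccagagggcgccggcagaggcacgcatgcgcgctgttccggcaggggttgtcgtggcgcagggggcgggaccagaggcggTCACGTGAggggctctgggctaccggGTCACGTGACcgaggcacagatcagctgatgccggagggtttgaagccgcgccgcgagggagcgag
GAA, chr17:80101331-80101630, plus strand: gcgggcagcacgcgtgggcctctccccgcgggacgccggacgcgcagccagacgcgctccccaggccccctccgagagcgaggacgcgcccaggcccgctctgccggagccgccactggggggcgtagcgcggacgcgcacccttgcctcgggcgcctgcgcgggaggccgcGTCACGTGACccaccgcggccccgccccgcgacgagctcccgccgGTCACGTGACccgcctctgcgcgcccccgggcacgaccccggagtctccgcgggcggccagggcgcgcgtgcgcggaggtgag
LAMP1, chr13:113296989-113297288, plus strand: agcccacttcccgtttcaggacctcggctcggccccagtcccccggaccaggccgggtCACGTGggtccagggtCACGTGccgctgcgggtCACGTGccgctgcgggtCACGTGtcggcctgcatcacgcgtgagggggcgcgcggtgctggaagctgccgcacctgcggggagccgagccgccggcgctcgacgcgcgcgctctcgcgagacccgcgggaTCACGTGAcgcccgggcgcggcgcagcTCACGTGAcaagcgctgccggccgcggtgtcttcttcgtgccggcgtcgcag
CTSL, chr9:87725869-87726168, plus strand: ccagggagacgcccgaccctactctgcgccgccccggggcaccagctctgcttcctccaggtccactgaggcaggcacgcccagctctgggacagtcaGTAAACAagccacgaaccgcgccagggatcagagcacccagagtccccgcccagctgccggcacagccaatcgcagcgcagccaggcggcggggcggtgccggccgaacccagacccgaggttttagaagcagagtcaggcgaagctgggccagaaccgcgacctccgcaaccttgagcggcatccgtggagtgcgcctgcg
GABARAPL1, chr12:10212627-10212926, plus strand: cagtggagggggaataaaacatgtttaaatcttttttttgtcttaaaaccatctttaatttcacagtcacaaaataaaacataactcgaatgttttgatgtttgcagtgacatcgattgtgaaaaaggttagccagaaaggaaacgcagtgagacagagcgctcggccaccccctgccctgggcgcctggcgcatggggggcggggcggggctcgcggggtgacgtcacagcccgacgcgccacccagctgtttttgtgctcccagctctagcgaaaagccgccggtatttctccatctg
The E-box CACGTG was searched on both strands, as were TCACGTGA, which contains it, and the CLEAR palindrome, which is TCACGTGA with a G before it and a C after it. The forkhead letters GTAAACA were also searched on both strands. RefSeq promoters were matched for 41 of the 52 genes. The E-box was in 11 of these 41 (26.8%), against 2030 of 27305 RefSeq promoters (7.43%). Only the first RefSeq window of each gene was searched. The 27305 were not limited to coding genes or to genes expressed in these cells. The members were picked by known role, so the 2 sets are not alike and the shares only describe them. TCACGTGA was in 6 of 41 (14.6%), against 1.04% of all promoters, and the palindrome was in 2 of 41 (4.88%), against 0.381%. The forkhead letters were in 1 of 41 (2.44%), against 3.41% of all promoters. These counts describe letters in a window and do not show where a factor was bound.

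Libraries held between 32471198 and 44726160 counts. Levels are given as CPM, which sets each gene's counts against its library's total after edgeR's TMM scaling, and a gene was called where its Benjamini-Hochberg adjusted p over all 16208 genes was below 0.05 in edgeR's quasi-likelihood test. BRD8 mRNA, which checks the genotype labels, was at 156.1 CPM in KO neratinib and 235.6 CPM in parental neratinib libraries, and at 67.44 CPM in KO DMSO and 64.13 CPM in parental DMSO libraries. In DMSO the libraries labelled KO thus did not hold less BRD8 mRNA (log2 fold change 0.07, adjusted p = 0.0189), and in neratinib they did (-0.59, adjusted p = 3.16e-27). Directions between genotypes rest on the labels. Luminal breast markers summed to between 13500 and 18300 CPM in every library, with ERBB2 the highest of them, and single markers differed between groups. GATA3 was at 171.4 CPM in KO neratinib, 389.3 in parental neratinib, 249.7 in KO DMSO and 434.5 in parental DMSO libraries. KRT19 was at 778.6, 761.7, 2288 and 2174 CPM in the same order, and CDH1 at 952.4, 913.9, 944.7 and 827.5 CPM. A list of 8 macrophage and blood cell genes, cells rich in lysosomes, summed to at most 0.909 CPM, and AIF1, CD163 and MARCO stood at 0 in KO neratinib libraries. The 8 fibroblast and endothelial markers summed to 153 to 156 CPM in KO neratinib, 103 to 108 in parental neratinib, 116 to 124 in KO DMSO and 82.4 to 88.3 in parental DMSO libraries, mostly from COL1A1 and VWF, and their part in the results was not tested. The libraries were bulk RNA, so fewer cells expressing a gene and less RNA per cell cannot be told apart.

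Per kilobase of exon, PSAP, the precursor of the saposins that help lysosomal enzymes reach their lipids, had the highest level of the 52 genes in every group. It stood at 389 RPKM in KO neratinib, 289.6 in parental neratinib, 315.8 in KO DMSO and 215 in parental DMSO libraries. In parental DMSO libraries the next levels per length were those of GABARAP at 68.5 RPKM, ATP6V0E1 at 68.1, CTSD at 66.6 and SQSTM1 at 61.7. TFEB was the lowest, at 0.153 RPKM in KO neratinib, 0.0636 in parental neratinib, 0.241 in KO DMSO and 0.209 in parental DMSO libraries. Its relative TFE3 stood at 10.4 RPKM in parental DMSO libraries and MITF at 0.441, so TFE3 had the highest level per length of the 3 MiT/TFE genes. RPKM here uses union exon lengths from GENCODE 29, since the annotation behind the counts is not given in the sources used here.

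Neratinib raised most of the 52 mRNAs in parental cells. Of the 52 genes, 38 were higher and 12 lower with neratinib, and 2 were not called. Over all genes tested, 41.8% were higher and 38.9% lower, so the members' share of rises, 73.1%, lay above the background and their share of falls, 23.1%, below it. The members' median log2 fold change was 0.28, against 0.04 over all genes. Rises of at least 2-fold were called for 8 members, 15.4% of them, against 13% of all genes: GABARAPL1, CTSL, ATG14, MAP1LC3B, NBR1, MCOLN1, WIPI2 and FNIP1. A fall of at least 2-fold was called for TFEB alone, 1.92% of the members, against 7.78% of all genes.

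In KO cells 32 members were higher and 18 lower with neratinib, and 2 were not called, against 38.9% higher and 38.4% lower over all genes. The median was 0.16, against 0.02 over all genes. Rises of at least 2-fold were called for GABARAPL1, CTSL, ATG14, FNIP1 and MCOLN1, 9.62% of the members against 9.42% of all genes, a share near the background. A fall of that size was called for FNIP2 alone, 1.92% of the members against 5.3% of all genes. With the coefficient of variation between libraries set to 0.1 in every gene, 9 members fell in KO cells. Of the members looked at singly in that setting, SQSTM1 and CTSD lost their calls in parental cells, and ULK1, LAMP1 and CTSD in KO cells. The 2 responses have no library in common: 31 members (59.6%) were called higher with neratinib in both genotypes, against 32.9% of all genes, and 12 (23.1%) lower in both, against 32.2%. A rise in parental and a fall in KO cells was called for 5 members (9.62%), against 1.77% of all genes. The plot of fold changes by role holds all 52 genes.

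**Figure D1:**
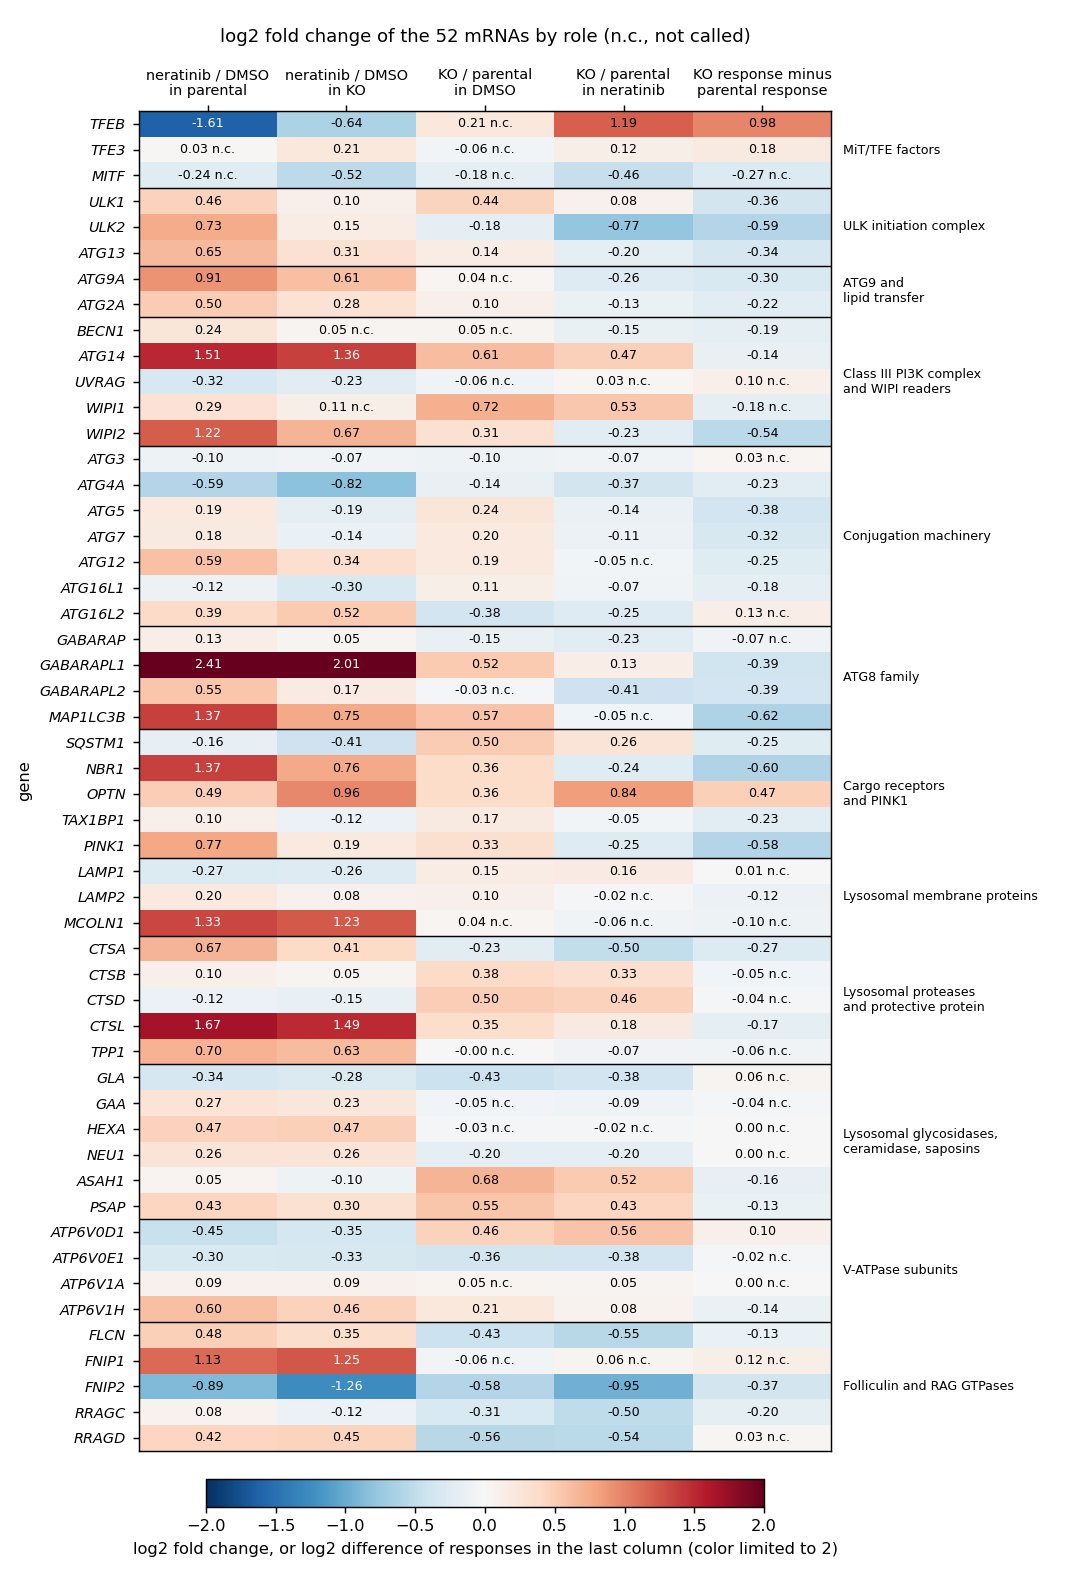
Log2 fold changes of the 52 mRNAs, one row a gene, grouped by role, in 5 columns: neratinib over DMSO in parental and in KO cells, KO over parental cells in DMSO and in neratinib, and the KO response minus the parental response; color runs from blue (lower) to red (higher) and n.c. marks a gene not called. GABARAPL1 has the darkest red in the first pair of columns, 2.41 and 2.01, TFEB the darkest blue, -1.61 in parental cells, and the last column is mostly pale blue, with 29 genes called lower there.

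The ATG8 family, the proteins attached to the autophagosome membrane, was called higher with neratinib for all 4 members in both genotypes, except that DESeq2 did not call GABARAP in KO cells (adjusted p = 0.0617). A rise in both genotypes was called for 32.9% of all genes. GABARAPL1 had 71.1, 72.2 and 74.5 CPM in KO neratinib libraries, against 18.1, 17.5 and 18.4 CPM in KO DMSO libraries. In parental cells it had 65.0, 67.4 and 66.9 CPM with neratinib, against 13.1, 12.6 and 11.8 CPM in DMSO. Every neratinib library stood far above every DMSO library of its genotype. The log2 fold change was 2.41 in parental cells (SE 0.039, 5.3-fold, adjusted p = 1.27e-40) and 2.01 in KO cells (SE 0.036, 4.04-fold, adjusted p = 6.51e-39). MAP1LC3B, which codes for LC3B, had 119, 116 and 117 CPM in parental neratinib libraries, against 43.4, 48.4 and 44.6 CPM in parental DMSO libraries. In KO cells it had 114, 115 and 112 CPM with neratinib, against 69.0, 65.0 and 69.0 CPM in DMSO. The neratinib levels of the genotypes were close and the DMSO levels were not, which gave log2 fold changes of 1.37 in parental (SE 0.03, adjusted p = 1.26e-35) and 0.75 in KO cells (SE 0.029, adjusted p = 1.93e-26). A near copy, MAP1LC3B2, shares 10% of the 50-base windows of MAP1LC3B and held 21.4% of the counts of both, so part of the MAP1LC3B reads may have been assigned there or the reverse. GABARAPL2 rose by 0.55 in parental and 0.17 in KO cells. GABARAP rose by 0.13 and 0.05, and 72.6% of its windows lie also in overlapping transcripts of other genes, which makes its counts uncertain.

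**Figure D2:**
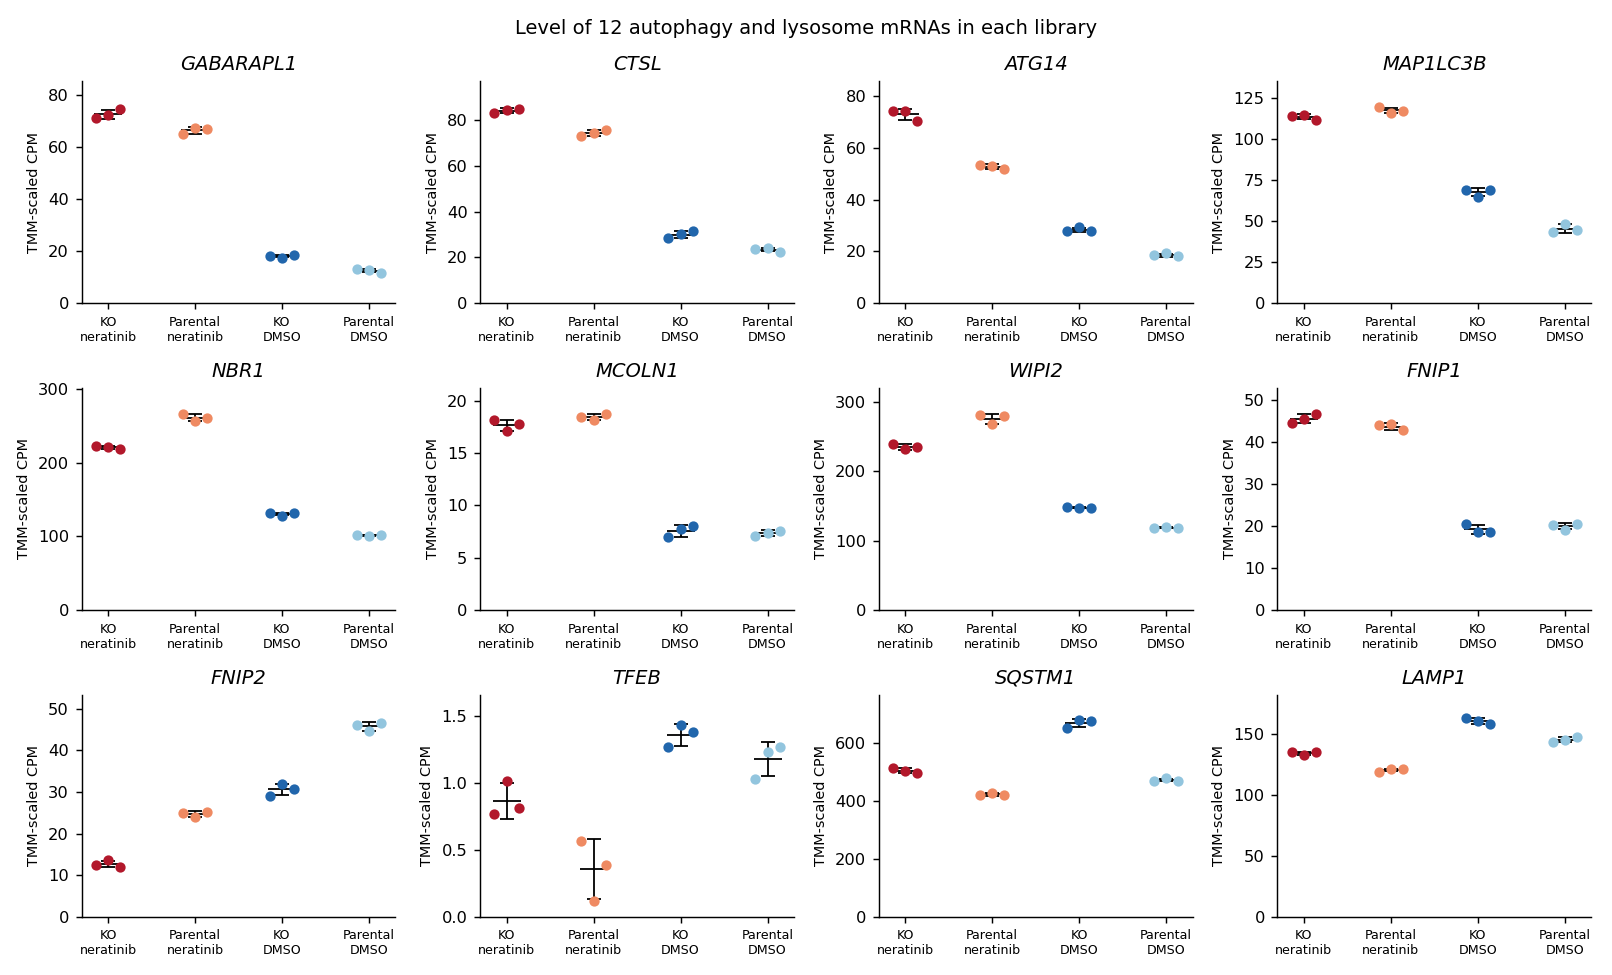
TMM-scaled CPM of 12 mRNAs in each library, on linear axes from 0; columns of points are KO neratinib, parental neratinib, KO DMSO and parental DMSO, dots are the 3 libraries, and the bar and whiskers are the mean and SD. For GABARAPL1, CTSL, ATG14, MAP1LC3B, NBR1, MCOLN1, WIPI2 and FNIP1 all neratinib libraries lie above all DMSO libraries, while FNIP2 and TFEB lie lower with neratinib.

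The initiation genes rose more in parental than in KO cells. ULK1, the kinase that starts autophagy, had 184, 191 and 176 CPM in parental neratinib libraries, against 134, 133 and 132 CPM in parental DMSO libraries. The KO values were 199, 196 and 189 CPM with neratinib, against 174, 185 and 184 CPM in DMSO. The groups were apart in both genotypes, by a log2 fold change of 0.46 in parental cells (SE 0.025, adjusted p = 4.01e-21) and of 0.10 in KO cells (SE 0.024, adjusted p = 0.000212). ULK2, its relative, rose by 0.73 in parental and 0.15 in KO cells, and ATG13, the adaptor of the ULK complex, by 0.65 and 0.31. ATG9A, which carries lipid-scrambling vesicles to the site, rose by 0.91 and 0.61, and ATG2A, which moves lipids into the new membrane, by 0.50 and 0.28.

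In the class III PI3K group the subunit that directs the complex to autophagosomes moved most. ATG14 had 74.4, 74.3 and 70.6 CPM in KO neratinib libraries, against 27.9, 29.4 and 27.8 CPM in KO DMSO libraries. In parental cells it had 53.5, 53.2 and 51.7 CPM with neratinib, against 18.6, 19.2 and 18.1 CPM in DMSO. The 4 groups did not overlap, and the log2 fold change was 1.51 in parental (SE 0.038, 2.84-fold, adjusted p = 1.44e-33) and 1.36 in KO cells (SE 0.033, 2.57-fold, adjusted p = 7.52e-34). UVRAG, which takes the place of ATG14 in the complex that acts on endosomes, went the other way and fell by 0.32 in parental and 0.23 in KO cells. BECN1, the subunit that both forms contain, rose by 0.24 in parental cells (adjusted p = 7.66e-10) and had a log2 fold change of 0.05 in KO cells (adjusted p = 0.134). WIPI2, which reads the lipid mark and recruits ATG16L1, had 281, 268 and 279 CPM in parental neratinib libraries, against 119, 119 and 118 CPM in parental DMSO libraries. In KO cells it had 239, 232 and 234 CPM with neratinib, against 148, 147 and 147 CPM in DMSO. Its neratinib libraries stood above the DMSO libraries in both genotypes, by 1.22 in parental (SE 0.021, adjusted p = 1.11e-39) and 0.67 in KO cells (SE 0.021, adjusted p = 6.14e-30). WIPI1 rose by 0.29 in parental cells and had a log2 fold change of 0.11 in KO cells (adjusted p = 0.0513).

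The conjugation enzymes moved in both directions: 4 of 7 rose and 3 fell in parental cells, 2 rose and 5 fell in KO cells. Over all genes 41.8% rose and 38.9% fell in parental cells, and 38.9% and 38.4% in KO cells. ATG12, the ubiquitin-like partner of ATG5, rose by 0.59 in parental and 0.34 in KO cells, and ATG16L2 by 0.39 and 0.52. ATG4A, a protease that trims and releases ATG8 proteins, had 13.03, 12.6 and 12.99 CPM in parental neratinib libraries, against 19.1, 19.9 and 19.4 CPM in parental DMSO libraries. The KO values were 10.2, 9.79 and 9.95 CPM with neratinib, against 17.3, 16.6 and 19.0 CPM in DMSO. It was lower in every neratinib library, by 0.59 in parental cells (log2 fold change -0.59, SE 0.053, adjusted p = 1.02e-13) and by 0.82 in KO cells (log2 fold change -0.82, SE 0.057, adjusted p = 4.29e-17). ATG16L1, the scaffold of the ATG12-ATG5 ligase, fell by 0.12 in parental and 0.30 in KO cells. Its parental call was lost with library totals (log2 fold change -0.04, adjusted p = 0.184). ATG3, the E2-like enzyme for ATG8 proteins, had log2 fold changes of -0.10 and -0.07, and both calls were lost with library totals (adjusted p = 0.501 in parental and 0.734 in KO cells). ATG5 and ATG7, the E1-like enzyme, rose in parental cells by 0.19 and 0.18 and fell in KO cells by 0.19 and 0.14. ATG7 shares 31.5% of its windows with VGLL4, so its counts are uncertain.

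Among cargo receptors, NBR1 and SQSTM1, which bind ubiquitin-tagged cargo together, moved in opposite directions. NBR1 had 266, 257 and 261 CPM in parental neratinib libraries, against 102, 101 and 102 CPM in parental DMSO libraries. In KO cells it had 223, 221 and 219.6 CPM with neratinib, against 132, 128 and 131 CPM in DMSO. The rise was 1.37 in parental (log2, SE 0.021, 2.58-fold, adjusted p = 8.76e-42) and 0.76 in KO cells (SE 0.021, 1.7-fold, adjusted p = 2.76e-32), with no overlap of libraries. SQSTM1, which codes for p62, had 420.0, 426 and 420.5 CPM in parental neratinib libraries, against 470.2, 478 and 469 CPM in parental DMSO libraries. The KO values were 513, 505 and 497 CPM with neratinib, against 653, 679 and 677 CPM in DMSO. The neratinib libraries were below the DMSO libraries in both genotypes, by 0.16 in parental (log2 fold change -0.16, SE 0.019, adjusted p = 3.51e-10) and by 0.41 in KO cells (log2 fold change -0.41, SE 0.019, adjusted p = 2.27e-23). The antisense neighbour MRNIP, whose transcripts cover 50.7% of the windows of SQSTM1, held 0.776% of the counts of both. OPTN, a receptor for damaged mitochondria and bacteria, rose by 0.49 in parental and 0.96 in KO cells, and was the member whose rise was larger in KO cells by the widest margin. PINK1, the kinase that marks damaged mitochondria, rose by 0.77 in parental and 0.19 in KO cells. Its antisense gene PINK1-AS held 15.3% of the counts of both, and without strand the reads of the pair cannot be told apart. TAX1BP1 rose by 0.10 in parental cells and fell by 0.12 in KO cells.

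The lysosomal genes gave mixed changes, led by a protease and an ion channel. CTSL, the cysteine protease cathepsin L, had 83.1, 84.3 and 85.1 CPM in KO neratinib libraries, against 28.4, 30.0 and 31.4 CPM in KO DMSO libraries. In parental cells it had 73.1, 74.3 and 75.7 CPM with neratinib, against 23.7, 24.0 and 22.5 CPM in DMSO. Neratinib and DMSO libraries were far apart in both genotypes, with a log2 fold change of 1.67 in parental (SE 0.035, 3.18-fold, adjusted p = 1.42e-36) and 1.49 in KO cells (SE 0.033, 2.82-fold, adjusted p = 1.57e-35). MCOLN1, the calcium channel of the lysosomal membrane, had 18.1, 17.1 and 17.7 CPM in KO neratinib libraries, against 6.92, 7.71 and 8.004 CPM in KO DMSO libraries. In parental cells it had 18.4, 18.1 and 18.7 CPM with neratinib, against 7.07, 7.36 and 7.58 CPM in DMSO. Neither treatment gave a called difference between the genotypes, and the log2 fold change was 1.33 in parental (SE 0.06, adjusted p = 5.08e-24) and 1.23 in KO cells (SE 0.06, adjusted p = 1.7e-22).

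LAMP1, the most used marker of the lysosomal membrane, fell instead. It had 119, 121 and 121 CPM in parental neratinib libraries, against 144, 145 and 148 CPM in parental DMSO libraries. In KO cells it had 135, 133 and 135 CPM with neratinib, against 164, 161 and 159 CPM in DMSO. Neratinib libraries were lower without overlap, by 0.27 in parental (log2 fold change -0.27, SE 0.022, adjusted p = 1.93e-15) and by 0.26 in KO cells (log2 fold change -0.26, SE 0.021, adjusted p = 6.16e-15). LAMP2 rose by 0.20 and 0.08. CTSD, the aspartic protease cathepsin D, fell by 0.12 in parental cells (log2 fold change -0.12, SE 0.023, adjusted p = 1.27e-05) and by 0.15 in KO cells (log2 fold change -0.15, SE 0.022, adjusted p = 3.84e-08). Its parental call was lost when only library totals were used for scaling (log2 fold change -0.04, adjusted p = 0.107), and 60.6% of its windows lie also in other transcripts. TPP1, a tripeptidyl peptidase, rose by 0.70 and 0.63, CTSA, which protects NEU1 and beta-galactosidase, by 0.67 and 0.41. CTSB rose by 0.10 in parental cells, and its log2 fold change of 0.05 in KO cells was called (adjusted p = 0.0493) but not with DESeq2 size factors (adjusted p = 0.0506).

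Of the 6 glycosidases, ceramidase and saposins, 5 rose in parental cells and 4 in KO cells, against 41.8% and 38.9% of all genes. HEXA, a beta-hexosaminidase subunit, rose by 0.47 in parental and 0.47 in KO cells, PSAP by 0.43 and 0.30, GAA, the acid glucosidase, by 0.27 and 0.23, and NEU1, the sialidase, by 0.26 and 0.26. GLA, the acid galactosidase, had 9.21, 9.76 and 9.58 CPM in parental neratinib libraries, against 11.5, 11.9 and 12.6 CPM in parental DMSO libraries. It fell by 0.34 in parental (log2 fold change -0.34, SE 0.063, adjusted p = 4.92e-06) and by 0.28 in KO cells (log2 fold change -0.28, adjusted p = 0.000442), with no overlap of libraries in either. ASAH1, the acid ceramidase, rose by 0.05 in parental cells and fell by 0.10 in KO cells, and lost the rise with DESeq2 size factors (adjusted p = 0.199) and the fall with library totals (adjusted p = 0.0515). Of the V-ATPase subunits, which acidify the lysosome, ATP6V1H rose by 0.60 and 0.46 and ATP6V1A by 0.09 and 0.09, both parts of the soluble domain. The membrane-domain subunits fell: ATP6V0D1 had 72.1, 73.2 and 74.7 CPM in parental neratinib libraries, against 100.3, 98.5 and 102 CPM in parental DMSO libraries. It fell by 0.45 in parental (log2 fold change -0.45, SE 0.026, adjusted p = 3.63e-20) and by 0.35 in KO cells, and ATP6V0E1 by 0.30 and 0.33.

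FNIP1 and FNIP2, alternative partners of folliculin in the complex that acts on the RAG GTPases RRAGC and RRAGD, moved in opposite directions. FNIP1 had 44.5, 45.4 and 46.6 CPM in KO neratinib libraries, against 20.3, 18.6 and 18.6 CPM in KO DMSO libraries. In parental cells it had 43.9, 44.2 and 42.7 CPM with neratinib, against 20.2, 19.1 and 20.5 CPM in DMSO. FNIP1 was thus higher in all neratinib libraries, by 1.13 in parental (log2, SE 0.04, adjusted p = 6.09e-28) and 1.25 in KO cells (SE 0.04, adjusted p = 2.3e-29). FNIP2 had 12.5, 13.5 and 12.04 CPM in KO neratinib libraries, against 29.1, 31.9 and 30.8 CPM in KO DMSO libraries. In parental cells it had 24.8, 23.9 and 25.2 CPM with neratinib, against 46.2, 44.6 and 46.5 CPM in DMSO. The 4 groups did not overlap, and FNIP2 fell by 0.89 in parental (log2 fold change -0.89, SE 0.039, adjusted p = 2.9e-24) and by 1.26 in KO cells (log2 fold change -1.26, SE 0.048, adjusted p = 1.61e-26). FLCN, folliculin itself, had 74.5, 70.4 and 71.4 CPM in parental neratinib libraries, against 51.3, 52.3 and 51.97 CPM in parental DMSO libraries. It rose by 0.48 in parental (SE 0.03, adjusted p = 1.2e-18) and 0.35 in KO cells (SE 0.034, adjusted p = 9.46e-13). RRAGD rose by 0.42 and 0.45 at levels of 1.29 to 3.84 CPM. Its KO libraries overlapped, at 2.545, 2.34 and 1.76 CPM with neratinib, against 1.29, 1.68 and 1.93 CPM in DMSO. RRAGC rose by 0.08 in parental cells and fell by 0.12 in KO cells; the rise was lost with DESeq2 size factors (adjusted p = 0.14) and the fall with library totals (adjusted p = 0.11). RRAGC, FLCN, ATG9A and BECN1 share between 30.9 and 44.8% of their windows with overlapping transcripts, and CTSA, HEXA and TPP1 between 18 and 24%, so their counts are uncertain too.

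TFEB, the factor best known for driving lysosomal genes, was scarce and fell with neratinib. It had 0.567, 0.121 and 0.390 CPM in parental neratinib libraries, against 1.03, 1.24 and 1.27 CPM in parental DMSO libraries. The KO values were 0.769, 1.02 and 0.810 CPM with neratinib, against 1.27, 1.43 and 1.38 CPM in DMSO. The groups did not overlap, but the 3 parental neratinib libraries differed several times over among themselves, and the 12 libraries held 436 TFEB counts in all. The log2 fold change was -1.61 in parental (SE 0.26, adjusted p = 5.15e-07) and -0.64 in KO cells (SE 0.21, adjusted p = 0.007), and in parental cells it lay between -2.15 and -1.27 when any library was left out. TFE3 had a log2 fold change of 0.03 in parental cells (adjusted p = 0.438) and rose by 0.21 in KO cells. MITF had 1.86, 2.32 and 1.62 CPM in KO neratinib libraries, against 2.86, 3.02 and 2.42 CPM in KO DMSO libraries, a fall of 0.52 (log2 fold change -0.52, SE 0.15, adjusted p = 0.00218). In parental cells its log2 fold change was -0.24 (adjusted p = 0.0999), and its libraries overlapped.

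Of the 11 genes with an E-box in the promoter window, 7 were higher and 4 lower with neratinib in parental cells, and of the 30 without it 22 were higher, 6 lower and 2 not called. In KO cells 6 of the 11 were higher and 5 lower, against 18 higher, 10 lower and 2 not called of the 30. Over all genes tested, 41.8% were higher and 38.9% lower in parental cells, and 38.9% and 38.4% in KO cells. Genes outside the list were not split by the E-box, and members without a matched promoter are not counted. A link between the E-box and the response was not tested. Of the promoters printed above, those of MCOLN1 and GAA have 2 E-boxes each and LAMP1 has 6. Of those not printed, ATG3, CTSA and FNIP1 have 2 each, and ATG14, CTSD, NEU1, ATP6V0D1 and RRAGC have 1 each. In CTSL the forkhead letters began 152 bases before the start site.

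KO cells in DMSO differed from parental cells in DMSO by less than 2-fold in every one of the 52 genes. KO libraries were higher for 26 members and lower for 13, and 13 were not called, against 36% higher and 35.6% lower over all genes. No member reached 2-fold in either direction, where 8.89% of all genes were called higher and 3.46% lower by at least that much. The median log2 fold change was 0.10, against 0.00 over all genes. All 5 cargo receptor and PINK1 genes were higher in KO cells, and 4 of the 5 folliculin and RAG genes were lower. The common variation between these libraries was 1.86%, and with it set to 0.1 in every gene 16 members were higher and 7 lower. Of the members looked at singly in that setting, LAMP1 lost its call, and the other lost calls were not listed by gene.

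The 5 largest rises were those of WIPI1, ASAH1, ATG14, MAP1LC3B and PSAP. WIPI1 had 14.3, 14.5 and 14.7 CPM in KO DMSO libraries, against 8.48, 8.89 and 9.11 CPM in parental DMSO libraries (log2 fold change 0.72, SE 0.058, adjusted p = 9.41e-15). WIPI1 shares 27.5% of its windows with ARSG, so its counts are uncertain. ASAH1 had 209, 212 and 204 CPM in KO DMSO libraries, against 129, 131 and 131 CPM in parental DMSO libraries (0.68, SE 0.022, adjusted p = 2.03e-28). Neither gene's libraries overlapped between genotypes. PSAP had 1023, 1023 and 1023 CPM in KO DMSO libraries, against 699, 699.8 and 691 CPM in parental DMSO libraries (0.55, SE 0.018, adjusted p = 3.55e-29). ATG14 was higher by 0.61 and MAP1LC3B by 0.57, both before any drug. SQSTM1 was higher by 0.50, CTSD by 0.50, GABARAPL1 by 0.52, ATP6V0D1 by 0.46, ULK1 by 0.44, CTSB by 0.38 and LAMP1 by 0.15, all called.

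The falls in KO DMSO libraries were led by the nutrient-sensing module. FNIP2 was at 30.6 ± 1.4 CPM in KO DMSO and 45.8 ± 1.0 CPM in parental DMSO libraries (SD, n = 3 each), a log2 fold change of -0.58 (SE 0.038, adjusted p = 8.3e-18). RRAGD was at 1.64 ± 0.32 CPM in KO DMSO and 2.40 ± 0.18 CPM in parental DMSO libraries (-0.56, SE 0.16, adjusted p = 0.00159). FLCN was at 38.5 ± 1.3 CPM in KO DMSO and 51.9 ± 0.49 CPM in parental DMSO libraries (-0.43, SE 0.033, adjusted p = 2.52e-15). No libraries of these 3 genes overlapped between the genotypes. RRAGC was lower by 0.31 (log2 fold change -0.31), GLA by 0.43 (-0.43) and ATG16L2 by 0.38 (-0.38), while FNIP1 had a log2 fold change of -0.06 (adjusted p = 0.262). TFEB, TFE3 and MITF were not called in DMSO, with log2 fold changes of 0.21, -0.06 and -0.18 and adjusted p of 0.347, 0.104 and 0.225.

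Under neratinib the balance between the genotypes was the other way. KO neratinib libraries were higher for 17 members and lower for 28, and 7 were not called, against 34.7% higher and 36.9% lower over all genes. The median log2 fold change was -0.07, against -0.02 over all genes. TFEB alone was called higher by at least 2-fold, 1.92% of the members against 7.92% of all genes, and no member was called lower by that much, against 3.25% of all genes. With the variation set to 0.1 in every gene, 9 members were higher and 11 lower. Of the members looked at singly in that setting, ULK1, SQSTM1 and LAMP1 lost their calls. The DMSO and neratinib comparisons share no library: 14 members (26.9%) were called higher in KO cells under both treatments and 13 (25%) lower under both, against 25.5% and 25.3% of all genes, shares near the background. Another 9 (17.3%) were higher in DMSO and lower in neratinib, against 3.44% of all genes, and 0 were lower in DMSO and higher in neratinib, against 3.01%.

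Members with more mRNA in KO cells under both treatments included WIPI1, ASAH1, PSAP, ATP6V0D1, CTSD, CTSB and SQSTM1. WIPI1 had 16.04, 15.2 and 15.8 CPM in KO neratinib libraries, against 10.8, 10.6 and 11.04 CPM in parental neratinib libraries (log2 fold change 0.53, adjusted p = 1.39e-11). ATP6V0D1 had 106, 107 and 112 CPM in KO neratinib libraries, against 72.1, 73.2 and 74.7 CPM in parental neratinib libraries (0.56, adjusted p = 2.64e-23). ASAH1 had 190.1, 196 and 196 CPM in KO neratinib libraries, against 136, 131 and 139.7 CPM in parental neratinib libraries (0.52, adjusted p = 4.29e-24). The KO libraries of these 3 genes were all above the parental libraries. OPTN had 9.41, 10.7 and 10.8 CPM in KO neratinib libraries, against 5.83, 5.74 and 5.77 CPM in parental neratinib libraries (0.84, SE 0.076, adjusted p = 2.53e-13). CTSD was higher by 0.46, PSAP by 0.43, SQSTM1 by 0.26, LAMP1 by 0.16 and ULK1 by 0.08, all called. TFEB was at 0.865 ± 0.13 CPM in KO neratinib and 0.359 ± 0.23 CPM in parental neratinib libraries (1.19, SE 0.28, adjusted p = 0.000272), and without parental neratinib replicate 2 the difference was 0.84 (adjusted p = 0.00572).

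Members with less mRNA in KO neratinib libraries were again led by FNIP2, at 12.7 ± 0.77 CPM in KO neratinib and 24.7 ± 0.68 CPM in parental neratinib libraries (SD, n = 3 each; log2 fold change -0.95, SE 0.05, adjusted p = 4.28e-21). ULK2 had 17.5, 18.0 and 17.5 CPM in KO neratinib libraries, against 29.1, 29.4 and 31.6 CPM in parental neratinib libraries (-0.77, SE 0.05, adjusted p = 9.94e-18). FLCN had 49.4, 48.2 and 50.2 CPM in KO neratinib libraries, against 74.5, 70.4 and 71.4 CPM in parental neratinib libraries (-0.55, SE 0.031, adjusted p = 2.72e-20). All KO libraries of these genes were below the parental ones. RRAGD was lower by 0.54 (log2 fold change -0.54) and RRAGC by 0.50 (-0.50). Thus 4 of the 5 folliculin and RAG genes were lower in KO cells under both treatments, against 25.3% of all genes. The 9 genes that were higher in KO cells in DMSO and lower in neratinib were ATG13, ATG2A, WIPI2, ATG5, ATG7, ATG16L1, NBR1, TAX1BP1 and PINK1. ATG16L1 lost its neratinib call with DESeq2 size factors (adjusted p = 0.065) and in the DESeq2 test (adjusted p = 0.117). The neratinib differences were small. The largest in size was -0.25 for PINK1, and WIPI2 had -0.23 and ATG13 -0.20. Smaller ones were -0.14 for ATG5, -0.11 for ATG7, -0.07 for ATG16L1 and -0.05 for TAX1BP1. With the variation set to 0.1 in every gene, SQSTM1, at 0.26 in neratinib, lost its call. The 9 calls were not looked at singly in that setting. MAP1LC3B, higher by 0.57 in DMSO, was at 114 ± 1.6 CPM in KO neratinib and 118 ± 1.6 CPM in parental neratinib libraries (-0.05, adjusted p = 0.105), and was called lower with library totals (adjusted p = 0.0497) and with no filter on low counts.

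The test of the difference between the responses asks whether neratinib changed a gene by another factor in KO cells than in parental cells. Of the 52 members 29 had a lower response in KO cells, 4 a higher one and 19 were not called, against 24.6% lower and 21.5% higher over all genes. The median difference was -0.15 on the log2 scale, against -0.02 over all genes. No member passed the stricter test for a difference beyond 1.5-fold (edgeR's glmTreat, adjusted p from 0.752 to 1 for the 4 members with differences of at least that size), against 1.07% of all genes lower and 1.1% higher. With the variation set to 0.1 in every gene 5 members had a lower and 0 a higher response.

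By role, a lower response was called for 3 of 3 ULK complex genes, for both ATG9A and ATG2A, for 3 of 5 class III PI3K and WIPI genes, 5 of 7 conjugation genes, 3 of 4 ATG8 genes, 4 of 5 receptor and PINK1 genes, 3 of 5 folliculin and RAG genes, 2 of 6 glycosidase, ceramidase and saposin genes, 2 of 5 protease genes, 1 of 3 membrane proteins, 1 of 4 V-ATPase genes and 0 of 3 MiT/TFE genes. Over all genes tested, a lower response was called for 24.6%. The roles were not tested against each other. With the variation set to 0.1 in every gene, only MAP1LC3B, NBR1, ULK2, PINK1 and WIPI2 kept a called lower response. The DESeq2 test did not call the lower responses of ATG14, ATG4A and ATP6V1H (adjusted p = 0.121, 0.0754 and 0.078). ATG14 was not called with DESeq2 size factors in edgeR either (adjusted p = 0.0586). MAP1LC3B had a difference of -0.62 (SE 0.042, adjusted p = 2.76e-16), since it rose by 0.75 in KO and 1.37 in parental cells. NBR1 had a difference of -0.60 (SE 0.029, adjusted p = 3.64e-21), ULK2 of -0.59 (SE 0.075, adjusted p = 1.36e-08), PINK1 of -0.58 (SE 0.069, adjusted p = 2.52e-09) and WIPI2 of -0.54 (SE 0.03, adjusted p = 1.72e-19). ULK1 had a difference of -0.36 (adjusted p = 7.83e-12), SQSTM1 of -0.25 (adjusted p = 2.61e-10) and FLCN of -0.13 (adjusted p = 0.0204). With the variation set to 0.1 in every gene, the calls of ULK1, SQSTM1 and FLCN were lost (adjusted p = 0.18, 0.437 and 0.776). The FLCN call was lost under DESeq2 size factors, where the difference was -0.10 (adjusted p = 0.0579), under the DESeq2 test and without several single libraries. LAMP1 and CTSD had differences of 0.01 and -0.04 (adjusted p = 0.759 and 0.387), and MCOLN1 one of -0.10 (SE 0.087, adjusted p = 0.359).

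A higher response in KO cells was called for OPTN (0.47, SE 0.12, adjusted p = 0.00118), TFE3 (0.18, adjusted p = 0.00191), ATP6V0D1 (0.10, adjusted p = 0.0186) and TFEB (0.98, SE 0.35, adjusted p = 0.0197). The ATP6V0D1 call was lost with library totals (adjusted p = 0.0844) and without KO neratinib replicate 3 (adjusted p = 0.081). For TFEB this was a smaller fall in KO cells. Its call rested on few counts: without parental neratinib replicate 2, where it had 0.121 CPM, the difference was 0.63 (adjusted p = 0.12), without KO neratinib replicate 2 it was 0.83 (adjusted p = 0.0797), and over all libraries left out in turn it lay between 0.63 and 1.52. The plot of the responses in both genotypes shows these genes off the diagonal.

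**Figure D3:**
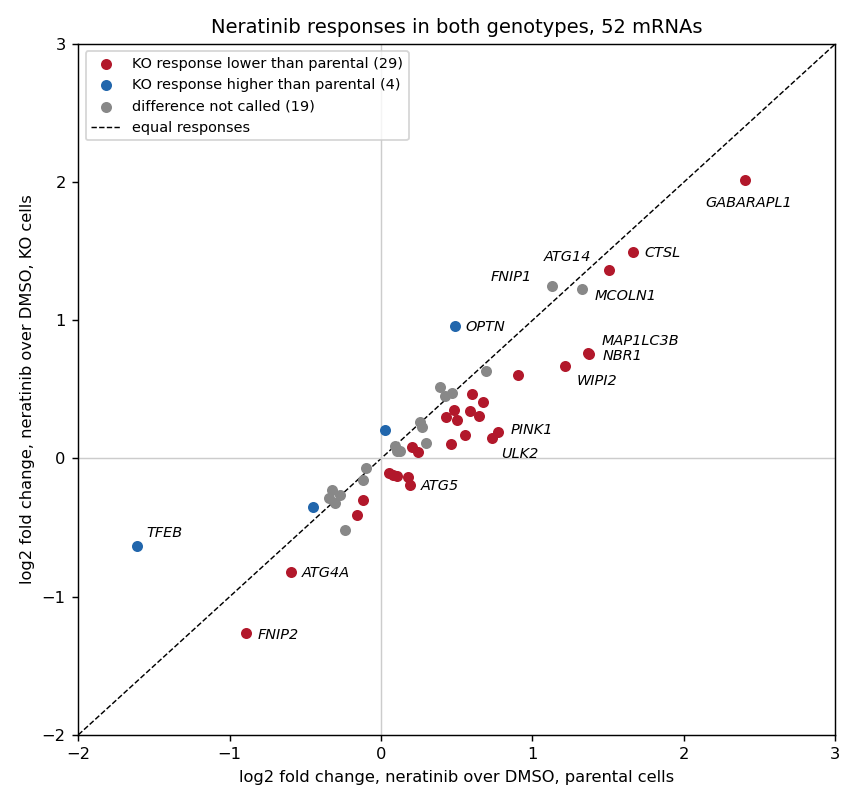
Log2 fold change with neratinib of the 52 mRNAs in parental cells (x axis) and in KO cells (y axis); each point is a gene, red where the KO response was called lower (29), blue where it was called higher (4) and grey where no difference was called (19), and the dashed line marks equal responses. GABARAPL1 is at the upper right end at 2.41 and 2.01, MAP1LC3B, NBR1 and WIPI2 lie below the line, and OPTN and TFEB lie above it.

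**Figure D4:**
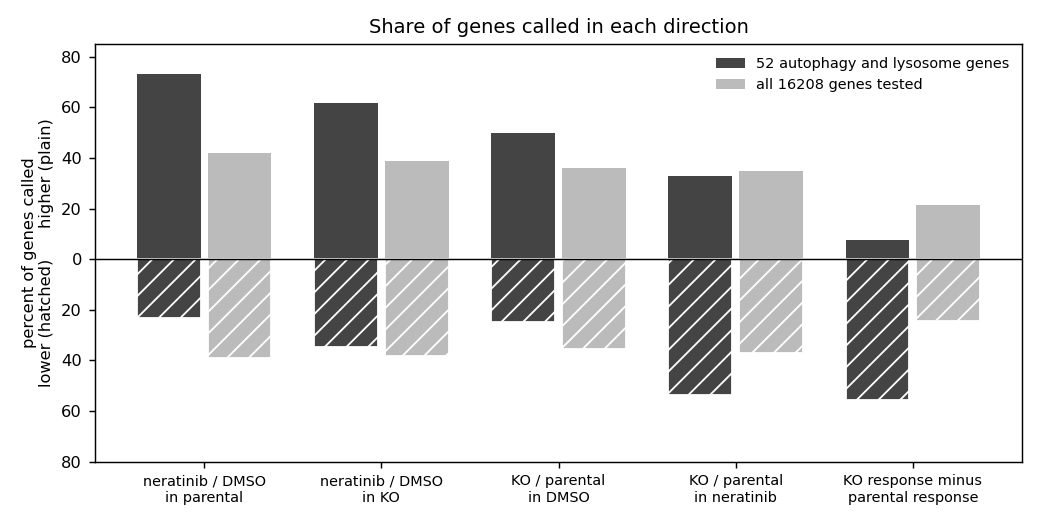
Percent of genes called higher (plain bars, upward) and lower (hatched bars, downward) in each of the 5 comparisons, for the 52 autophagy and lysosome genes (dark) and for all 16208 genes tested (light). The dark upward bar is taller than the light one in the first 3 comparisons (73.1% against 41.8% in the first), and in the last comparison the dark downward bar is the taller, 55.8% against 24.6%.

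A further 190 genes with roles in autophagy, the lysosome, the V-ATPase or nutrient sensing at the lysosome were in the table, and 184 were tested. With neratinib 99 of the 184 were higher and 55 lower in parental cells, and 90 higher and 61 lower in KO cells. These are 53.8% higher and 29.9% lower in parental cells, against 41.8% and 38.9% of all genes, and 48.9% and 33.2% in KO cells, against 38.9% and 38.4%. Rises of at least 2-fold, 22 (12%) and 14 (7.61%), were no more frequent than over all genes, at 13% and 9.42%. In KO cells against parental cells 70 were higher (38%) and 72 lower (39.1%) in DMSO, near the 36% and 35.6% of all genes, and 57 higher (31%) and 96 lower (52.2%) in neratinib, against 34.7% and 36.9%. A lower response to neratinib in KO cells was called for 72 (39.1%) and a higher one for 23 (12.5%), against 24.6% and 21.5% of all genes.

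Of 45 other autophagy genes, 28 rose (62.2%) and 7 fell (15.6%) with neratinib in parental cells, against 41.8% and 38.9% of all genes. The largest rise was that of CALCOCO1, a receptor for autophagy of the endoplasmic reticulum, at 180.9 CPM in parental neratinib and 37.6 CPM in parental DMSO libraries (log2 fold change 2.26, SE 0.028, adjusted p = 2.26e-45). In KO cells it was at 112 CPM with neratinib and 34.7 CPM in DMSO (1.68, adjusted p = 1.97e-39). In KO neratinib libraries CALCOCO1 was lower than in parental neratinib libraries (-0.70). MAP1LC3A was lower in KO cells in DMSO (-0.21), and FUNDC1 had the largest higher response (0.22). RETREG1, another receptor for the endoplasmic reticulum, was at 14.1 CPM in KO DMSO and 4.52 CPM in parental DMSO libraries (1.64, adjusted p = 8.55e-25), and its response to neratinib was lower in KO cells by 0.91 (difference -0.91, SE 0.085, adjusted p = 3.18e-12). The largest falls with neratinib in this list were those of ATG101, a ULK complex subunit, in parental cells (-0.42) and ATG4B, an ATG8 protease, in KO cells (-0.57). Of 49 other lysosomal enzymes, 24 rose (49%) and 19 fell (38.8%) in parental cells, near the shares of all genes. HYAL2, a hyaluronidase, fell by 1.34 in parental (log2 fold change -1.34, adjusted p = 3.29e-28) and 1.30 in KO cells (-1.30). PPT2, a thioesterase, rose by 1.39 in parental cells and was lower in KO cells under neratinib (log2 fold change -1.5, adjusted p = 1.12e-15). CTSF, another cathepsin, rose by 1.04 in KO cells. SCPEP1, a carboxypeptidase, was higher in KO cells in DMSO by 0.89 and ARSB, a sulfatase, in neratinib by 0.69. The responses of SGSH and CTSK differed by 0.60 and -0.75, and that of CTSK was not called by DESeq2. ACP2, an acid phosphatase, was lower in KO cells in DMSO by 1.02 (log2 fold change -1.02, adjusted p = 2.03e-28).

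Of 33 other lysosomal membrane and transport genes, 21 rose (63.6%) and 4 fell (12.1%) with neratinib in parental cells, against 41.8% and 38.9% of all genes. NPC1, which exports cholesterol, was at 83.1 CPM in KO neratinib and 39.9 CPM in KO DMSO libraries (1.06, adjusted p = 7.09e-31). CD63, a tetraspanin of late endosomes, fell by 1.09 in parental (log2 fold change -1.09, adjusted p = 6.48e-37) and by 0.85 in KO cells (-0.85). SCARB2, the receptor that carries glucocerebrosidase to the lysosome, was at 612 CPM in KO DMSO and 418 CPM in parental DMSO libraries (0.55, adjusted p = 8.76e-28), and LAPTM4B at 153 CPM in KO DMSO and 257 CPM in parental DMSO libraries (-0.75, adjusted p = 3.46e-31). SLC29A3, a nucleoside transporter, was at 20.6 CPM in parental neratinib and 8.98 CPM in parental DMSO libraries and had a lower response in KO cells by 0.56 (difference -0.56), whereas TPCN2, a lysosomal cation channel, had a higher one by 0.37. ABCA2 was higher in KO cells in neratinib by 0.52, and MCOLN3 was lower (-1.02, adjusted p = 0.0216) at 0.171 CPM in KO neratinib and 0.347 CPM in parental neratinib libraries, a call that DESeq2 did not make. The 18 other V-ATPase genes split evenly in parental cells, 8 higher (44.4%) and 8 lower (44.4%) with neratinib, near the shares of all genes. In KO cells 5 were higher (27.8%) and 8 lower (44.4%), against 38.9% and 38.4% of all genes. ATP6V1G2 rose by 1.65 in parental and 1.14 in KO cells at low levels, ATP6V0B fell by 0.65 in parental cells (-0.65) and ATP6V1E2 by 0.62 in KO cells (-0.62). ATP6V1C2 was higher in KO cells by 1.19 in DMSO and 0.90 in neratinib, ATP6V1B1 was lower by 0.60 (-0.60) and 0.67 (-0.67), and the response of ATP6V0C was lower by 0.27 (difference -0.27). Of 39 other nutrient-sensing genes, 18 rose (46.2%) and 17 fell (43.6%) in parental cells, near the shares of all genes. SESN3, a sestrin known as a FOXO target, was at 24.5 CPM in parental neratinib and 3.97 CPM in parental DMSO libraries (2.62, SE 0.063, adjusted p = 3.11e-34), and at 52.1 CPM in KO neratinib and 12.7 CPM in KO DMSO libraries (2.03, adjusted p = 5.44e-36). SLC7A5, a leucine transporter, fell in KO cells (log2 fold change -1.12, adjusted p = 2.78e-38), at 127 CPM with neratinib and 275 CPM in DMSO. CASTOR1, an arginine sensor, fell in parental cells (-0.88). SESN3 was higher in KO cells by 1.68 in DMSO and 1.09 in neratinib, LARS1, a leucyl-tRNA synthetase, was lower in DMSO (-0.61), LAMTOR4 was lower in neratinib (-0.60), and ITFG2 had a higher response (0.27). DEPTOR, an mTOR inhibitor, had a lower response in KO cells (difference -0.66, SE 0.049, adjusted p = 2.7e-15).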

How the data were processed

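RNA from 12 samples in 4 groups of 3 was sequenced in single reads of 50 bases from TruSeq RNA libraries, a kit that does not mark strand, per the labels' protocols. The authors deposited 1 table of whole-number counts per gene. Per the submitters' processing notes, FastQC 0.11.7, STAR 2.7.9 and edgeR 3.40.2 were used with GRCh38/hg38, and the counting program, annotation and strand setting are not given in the sources used here. Of 28395 lines, 581 without a symbol (0.0877 to 0.124% of counts per library) were left out. Counts were tested with edgeR 4.0.16 in R 4.3.3 (filterByExpr, TMM, glmQLFit with 1 mean per group over all 12 libraries, glmQLFTest), with Benjamini-Hochberg adjustment over 16208 genes, and with glmTreat beyond 1.5-fold for the difference of responses. Fold changes are tested over control on the log2 scale, and SE is the log2 fold change over the square root of F. On simulated data the scripts were tested with known fold changes. Alternatives were DESeq2 1.42.0, other scalings and filters, a fixed coefficient of variation, a replicate block, only the 2 groups compared, and each library left out. Named in each comparison are members called at 2-fold or more, the 5 largest rises and falls, TFEB, ULK1, MAP1LC3B, SQSTM1, LAMP1, CTSD and FLCN, and for other lists the largest called rise and fall; the rest are summarised, and any further member was named after its values were seen. A result that this rule would name among the other lists is not reported here. The members and lists were chosen with earlier results of these data known. Overlap with other genes was counted in 50-base windows of the longest GENCODE 29 transcript.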

Additional observations from a re-analysis of the deposited data

Results flagged for a closer look

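In 9 genes the response to neratinib differed between KO and parental cells by edgeR's test of the difference (adjusted p below 0.05) and either by at least 1.5-fold or with called changes in opposite directions. None of the 9 passed the stricter test for a difference beyond 1.5-fold (glmTreat).

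The log2 difference, KO response minus parental response, was -0.621 for MAP1LC3B, -0.603 for NBR1 and -0.586 for ULK2, which rose less in KO cells. For TFEB it was 0.977, a smaller fall in KO cells from few counts, and the call was lost without parental neratinib replicate 2 (0.632, adjusted p = 0.12).

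For 5 genes a fall in KO cells stood beside a rise in parental cells. The difference was -0.382 for ATG5, -0.315 for ATG7, -0.228 for TAX1BP1, -0.197 for RRAGC and -0.159 for ASAH1. The opposite directions of ATG5, ATG7 and TAX1BP1 were called under DESeq2 size factors, library totals and the DESeq2 test as well. Those settings all take the spread from these libraries. With the variation set to 0.1 in every gene, changes of like size lost their calls, -0.161 for SQSTM1 in parental and 0.102 for ULK1 in KO cells. In that setting the lower responses called were those of MAP1LC3B, NBR1, ULK2, PINK1 and WIPI2. The differences of ATG5, ATG7, TAX1BP1, RRAGC and ASAH1 were thus not called there. Their changes within each genotype were not looked at singly. ATG7 shares 31.5% of its windows with VGLL4, so its counts are uncertain. The opposite directions of RRAGC and ASAH1 were not called under the other scalings. With DESeq2 size factors the parental rise was 0.053 for RRAGC (adjusted p = 0.14) and 0.032 for ASAH1 (adjusted p = 0.199). With library totals the KO change was -0.067 for RRAGC (adjusted p = 0.11) and -0.049 for ASAH1 (adjusted p = 0.0515).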

How the results depend on the processing

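The counts of members called higher and lower stayed within 1.5 times under the other scalings, filters and tests and with each library left out, except as follows. With the variation between libraries set to 0.1 in every gene, 9 members fell with neratinib in KO cells, 16 were higher and 7 lower in KO cells in DMSO, 9 higher and 11 lower in neratinib, and 0 had a higher and 5 a lower response. Above a mean of 5 CPM, where TFEB was not tested, 0 members fell by at least 2-fold in parental cells and 0 were higher by 2-fold in KO neratinib libraries. DESeq2 called 1 response higher by at least 2-fold.

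The median log2 fold change of the members kept its sign under every setting run. With DESeq2 size factors it was 0.259 for neratinib in parental cells, 0.084 for KO cells in DMSO and -0.128 for the difference of responses, and the DESeq2 test gave 0.259, 0.084 and -0.128. With library totals it was 0.361 and 0.213 for neratinib in parental and KO cells, 0.111 and -0.078 for KO cells in DMSO and in neratinib, and -0.175 for the difference; that scaling moved the median of all genes in parental cells to 0.118, against 0.039. Without a filter it was 0.251, 0.119 and -0.081 for neratinib in parental cells, neratinib in KO cells and KO cells in neratinib. Above 5 CPM it was 0.355, 0.231, 0.125 and -0.038 for neratinib in parental and KO cells and KO cells in DMSO and neratinib. From the 2 groups compared alone it was -0.053 for KO cells in neratinib.

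With each library left out, the median lay between 0.261 and 0.293 for neratinib in parental cells, 0.112 and 0.194 in KO cells, 0.085 and 0.098 for KO cells in DMSO, -0.084 and -0.054 in neratinib, and -0.163 and -0.122 for the difference. In KO neratinib libraries 0 to 1 members were higher and 0 to 1 lower by at least 2-fold, and 0 to 1 had a response higher by that much. Among named genes the difference of responses of LAMP1 changed sign with library totals (-0.011) and lay between -0.001 (without KO DMSO replicate 3) and 0.046 with each library left out, and that of CTSD between -0.058 and 0.016 (without parental DMSO replicate 3), none of them called. The calls of FLCN, ATP6V0D1 and CTSK for the difference of responses and of MCOLN3 in KO neratinib libraries were each lost under several settings, left-out libraries among them.

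The replicate numbers gave no clear pairing of the samples: deviations of same-numbered libraries had correlations of -0.021 to 0.028. Between KO and parental neratinib libraries the same number was the best match for every replicate (0.025, 0.019 and 0.011). Values this small do not settle if the samples were paired. With the replicate block 38 members were higher and 12 lower with neratinib in parental cells, 31 and 18 in KO cells, and no call of the 126 named results changed. Depth limits mainly TFEB, MITF and RRAGD, all under 4 CPM, and the small spread between libraries lets differences of a few percent pass the test.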
